A study of Mus musculus with 55 samples.

Results

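The livers of OTC and WT male mice were compared after both had received a short hairpin RNA against Glud1. The comparison takes the 8 OTC and 9 WT libraries carrying that hairpin, 17 of the 55 liver libraries of the series, chosen by strain and hairpin labels alone. WT is the hybrid stock B6EiC3SnF1/J. OTC is B6EiC3Sn a/A-Otcspf-ash/J, whose Otc allele on the X chromosome is the spf-ash allele. The stocks are named separately in the labels, so a difference that comes from the Otc allele and one that comes from the rest of the stock cannot be told apart. Mice were injected intravenously with AAV at 4 months of age (week 0), fed a 40% protein diet from week 2, and sampled at week 5; the age label is 5 months. The hairpin, the diet, the sex and the time were the same in both groups, so no untreated liver enters this comparison. The other 38 libraries received a scrambled hairpin (control; 8 OTC, 10 WT) or a hairpin against Gls2 (sh-Gls2; 10 OTC, 10 WT) on the same schedule. The design gives 12 to 13 mice per group at randomisation, so the sequenced livers are fewer than the mice that entered the study.

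Ornithine transcarbamylase, the product of Otc, joins carbamoyl phosphate and ornithine to make citrulline in liver mitochondria. It is the step of the urea cycle that is lost in the most common inherited urea cycle disorder, in which ammonia accumulates and unused carbamoyl phosphate feeds pyrimidine synthesis. The spf-ash allele is a single-base change at an exon edge that disturbs splicing and leaves little correctly spliced message. Glutamate dehydrogenase, the product of Glud1, releases ammonia from glutamate, and glutaminase 2, the product of Gls2, releases it from glutamine; both reactions supply nitrogen to the periportal hepatocytes where the urea cycle runs. Hepatocytes around the central vein instead capture ammonia into glutamine through glutamine synthetase, the product of Glul.

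Library totals ran from 15720335 to 22672786 counts in OTC and from 15321137 to 21052417 counts in WT, and no pair of the 17 libraries agreed within sampling noise (lowest chi-square per degree of freedom 11.1 over 136 pairs). Levels are given as CPM, counts scaled to a common library total, after TMM scaling, a correction for differences in library make-up. A level with a range beside it is the median of its group. In the plot of levels in each liver the targeted genes come first. Otc, which lies at chrX:10252305-10321024 on the plus strand of GRCm38, stood at 499.5 to 586 CPM (median 573) in WT and 51.6 to 74.5 CPM (median 55.1) in OTC. The groups lay far apart, with a 9.65-fold lower level in OTC (log2 fold change -3.27, SE 0.095, edgeR adjusted p = 1.36e-33). Glud1, the hairpin's target, stood at 254 to 583 CPM (median 374) in WT and 282 to 588 CPM (median 456) in OTC; the ranges overlapped and the difference did not pass the test (log2 fold change 0.20, SE 0.12, edgeR adjusted p = 0.21). Over the other settings the log2 fold change of Glud1 ran from 0.13 to 0.39, and not all of them left it uncalled. Glud1 stood at 282 to 440 CPM in OTC mice 53, 58, 65 and 71 and 472 to 588 CPM in OTC mice 23, 33, 42 and 44. In WT it stood at 254 to 374 CPM in mice 56, 57, 69 and 70 and 343 to 583 CPM in the others. In the 38 libraries without the Glud1 hairpin the level of Glud1 was 793 to 1234 CPM, above every library with it. Gls2 stood at 343 to 579 CPM (median 433) in WT and 324 to 527 CPM (median 435) in OTC, with a log2 fold change of 0.00067 (SE 0.11).

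**Figure D1:**
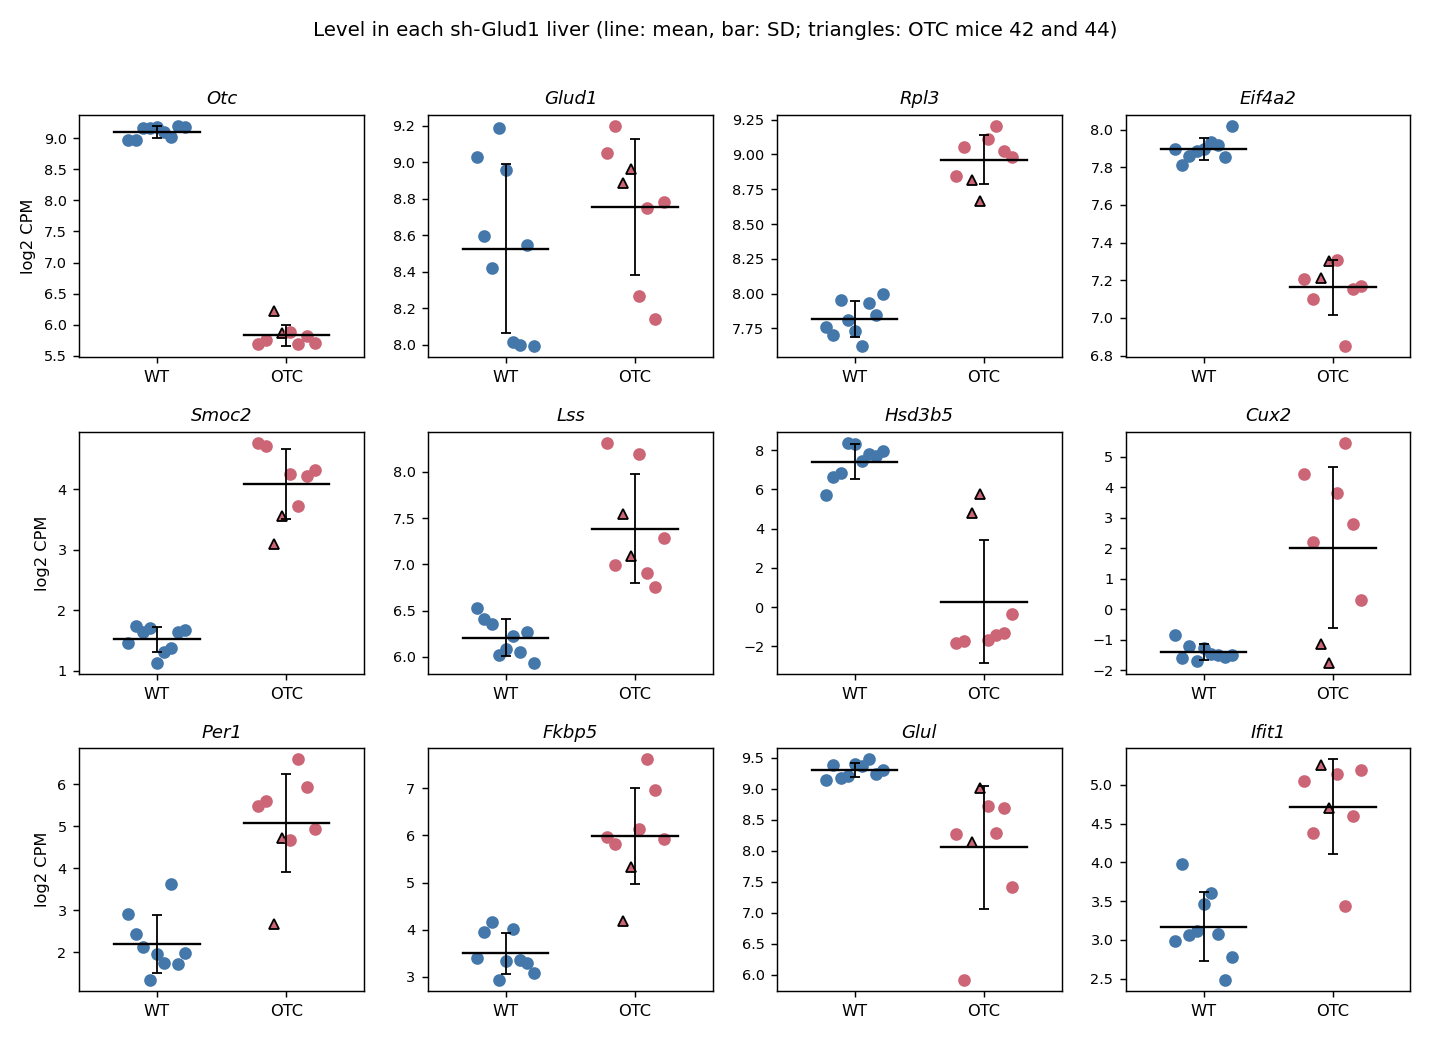
Each panel plots one gene's log2 CPM in the 9 WT and 8 OTC sh-Glud1 livers, 1 point per mouse, with the mean (line) and SD (bar) and triangles for OTC mice 42 and 44. Otc, Rpl3, Eif4a2, Smoc2, Lss, Fkbp5 and Glul separate the groups completely, Glud1 overlaps, and in the Hsd3b5, Cux2 and Per1 panels a triangle lies at or near the WT points.

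Of 13311 genes tested, 4663 (35.03%) differed between OTC and WT at an adjusted p below 0.05, with 2650 higher in OTC (19.9%) and 2013 lower (15.1%). These shares are the background for the gene group counts from all mice. Counts from fewer mice or on another scale have other backgrounds. Mice numbered up to 44 alone gave 627 genes higher and 824 lower of 12524 tested. Mice numbered above 44 alone gave 1026 and 984 of 12555, and the set without OTC mice 58 and 65 gave 1868 and 1641 of 13407. The authors' TPM values divide by transcript length and were used without TMM scaling. On them limma called 4862 of 11310 genes higher and 822 lower. The median log2 difference over all genes was 0.155 there instead of 0.020, so the call of a small fall depends on the scaling. The change was at least 2-fold for 323 of the higher and 313 of the lower genes, and the ranges of the groups did not overlap for 650 genes (4.88%; 267, or 2.01%, with OTC above WT and 383, or 2.88%, with OTC below). The genes with the smallest adjusted p after Otc were Eif4a2, a translation initiation helicase, and Rpl3, a protein of the large ribosomal subunit whose pseudogene copies can share its reads. Eif4a2 stood at 224 to 259 CPM (median 238) in WT and 115 to 158 CPM (median 146) in OTC, so every OTC liver lay below every WT liver (log2 fold change -0.73, SE 0.052, edgeR adjusted p = 1.10e-15). Rpl3 stood at 197 to 256 CPM (median 224) in WT and 406 to 590.4 CPM (median 513) in OTC, again without overlap and in the opposite direction (log2 fold change 1.15, SE 0.089, edgeR adjusted p = 3.37e-14). Smoc2, a secreted matrix protein, rose from 3.00 CPM (range 2.08 to 3.25) in WT to 18.7 CPM (range 8.44 to 27.2) in OTC, the Smoc2 difference being a log2 fold change of 2.68. Cbr1, a carbonyl reductase, stood at 27.7 to 50.3 CPM (median 35.3) in WT and 73.1 to 187 CPM (median 141) in OTC (log2 fold change 1.95). Abcg2, an efflux transporter of the hepatocyte's canalicular membrane, fell from 83.9 CPM (range 78 to 111) in WT to 41.7 CPM (range 37.4 to 51.5) in OTC, and Mpst, a mitochondrial and cytosolic sulfurtransferase, fell from 74.6 CPM (range 69.5 to 86.2) in WT to 41.6 CPM (range 31.9 to 48.8) in OTC. For all 6 genes the groups did not overlap.

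The OTC livers did not form one tight group. On the first principal component of the 17 libraries (37.3% of the variance) the WT livers lay between -36.7 and -22.5, OTC mouse 42 lay at -3.19, OTC mouse 44 at 7.11, and the other 6 OTC mice between 29.7 and 58.9, with mice 58 (58.9) and 65 (50.9) farthest out. Counted over the 4663 called genes, mouse 42 lay beyond the WT range in the called direction for 49.3% of them and mouse 44 for 55.7%, against 69.1% to 84.3% in the other 6. The median standard deviation of log2 CPM was 0.250 in OTC and 0.180 in WT, and it was the larger in OTC for 9797 genes (73.6%). Without mice 42 and 44 the count of called genes was 5031, and without mice 58 and 65 it was 3509. Both pairs were chosen after the data were seen, mice 42 and 44 as the nearest to WT and mice 58 and 65 as the farthest. More calls without the nearest pair and fewer without the farthest follow in part from that choice. Counts without these pairs show which livers a call leans on and are no independent check. These pairs of mice recur in the gene groups described next.

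Among the urea cycle enzymes other than Otc, 3 of the remaining 7 tested genes rose in OTC and none fell. Asl, which splits argininosuccinate into arginine and fumarate, stood at 364 to 646 CPM (median 422) in WT and 525 to 1995 CPM (median 724) in OTC. The ranges overlapped, since the highest WT liver lay above the lowest OTC livers, and the 2 highest OTC values were 1995 CPM in mouse 65 and 1627 CPM in mouse 58 (log2 fold change 1.13, SE 0.23, edgeR adjusted p = 1.62e-04). Arg1, the arginase that releases urea, stood at 1174 to 1435 CPM (median 1234) in WT and 1363 to 3197 CPM (median 1786) in OTC (log2 fold change 0.65, SE 0.16, edgeR adjusted p = 0.00102). Cps1, which makes carbamoyl phosphate from ammonia, stood at 4786 to 7111 CPM (median 5764) in WT and 6480.2 to 13092 CPM (median 7647) in OTC (log2 fold change 0.55, SE 0.13, edgeR adjusted p = 6.17e-04). Mice 65 and 58 were the 2 highest livers for Cps1 and Arg1 as well, and without them the call for Arg1 was lost (0.38, edgeR adjusted p = 0.0571), so that 2 of the 7 rose. Ass1, which joins citrulline and aspartate, had a log2 fold change of 0.25 (SE 0.13), Nags, which makes the activator of Cps1, 0.0088 (SE 0.082), and the aspartate carrier Slc25a13 -0.067 (SE 0.084); none passed the test. The ornithine carrier Slc25a15 stood at 312 to 391 CPM (median 371) in WT and 242 to 793 CPM (median 314) in OTC. Its highest value came from mouse 65 (793 CPM), the next OTC liver being at 338 CPM, and its fold change was 0.0041 on the log2 scale (SE 0.15). Among mice numbered up to 44 alone (4 OTC, 5 WT), none of the 3 enzymes passed the test.

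Of 20 genes that handle glutamine, glutamate and ammonia, 4 rose and 5 fell in OTC, close to the shares over all genes; on the TPM scale 6 rose and 3 fell. The falls included the perivenous ammonia-capturing pair. Glul, glutamine synthetase, stood at 565 to 711 CPM (median 633) in WT and 60.5 to 517 CPM (median 312) in OTC, with no overlap. Mouse 33 was lowest at 60.5 CPM and mouse 44 highest at 517 CPM (log2 fold change -1.02, SE 0.24, edgeR adjusted p = 9.04e-04). Rhbg, an ammonia channel of the same cells, fell from 5.51 CPM (range 4.22 to 8.99) in WT to 1.3 CPM (range 0.74 to 2.21) in OTC, every OTC liver lying below every WT liver (log2 fold change -2.18, SE 0.21, edgeR adjusted p = 1.97e-11). The glutamine transporter Slc38a3 stood at 1235 to 1747 CPM (median 1376) in WT and 848 to 1465 CPM (median 1035) in OTC (log2 fold change -0.37, edgeR adjusted p = 0.00926). Its call was lost on the TPM scale (-0.23, limma adjusted p = 0.0883), without mice 58 and 65 (-0.30, edgeR adjusted p = 0.0613) and among mice numbered up to 44 (-0.12, edgeR adjusted p = 0.566). Gpt2, the mitochondrial alanine aminotransferase, had a log2 fold change of -0.49 (SE 0.16, edgeR adjusted p = 0.0143) and was not called on the TPM scale (-0.33, limma adjusted p = 0.0668) or among mice numbered above 44 (-0.51, edgeR adjusted p = 0.0658). Slc38a2, a neutral amino acid transporter, rose from 87.4 CPM (range 82.2 to 117) in WT to 149 CPM (range 99.6 to 341) in OTC (log2 fold change 0.89, SE 0.16, edgeR adjusted p = 2.42e-05). Slc7a5, the light chain of a large neutral amino acid transporter, rose from 1.49 CPM (range 0.792 to 2.89) in WT to 3.49 CPM (range 2.48 to 4.47) in OTC (log2 fold change 0.96, SE 0.22, edgeR adjusted p = 5.19e-04). The call for Got1, cytosolic aspartate aminotransferase (log2 fold change 1.10, edgeR adjusted p = 0.00885), rested on mouse 65 at 1614 CPM: without it the change was 0.68 and did not pass. The call for Slc1a5, a glutamine transporter (log2 fold change 0.78), was lost without mouse 42 (0.63). Asparagine synthetase Asns (0.11) and ornithine aminotransferase Oat (-0.44) did not pass the test. For Oat, mouse 65 stood at 1456 CPM and the other OTC livers at 384 to 589 CPM, against 536 to 1139 CPM in WT. Without mice 58 and 65, 3 of the 20 genes rose and 7 fell.

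Perivenous genes fell more often than they rose, and periportal genes the reverse. The mean of 24 genes known from hepatocytes around the central vein lay below the whole WT range in all 8 OTC livers. Mouse 65 was only just below it, at -0.217 against -0.215 in the lowest WT liver (log2 difference from the WT mean). Of these 24 genes, 9 fell and 3 rose (median log2 fold change -0.40). Besides Glul and Rhbg these included Slc22a3, an organic cation transporter, at 2.15 to 5.48 CPM (median 3.2) in WT and 0.296 to 2.31 CPM (median 0.367) in OTC (log2 fold change -2.50, SE 0.39); the single OTC value inside the WT range came from mouse 65. The rise of Cyp7a1, the rate-limiting enzyme of bile acid synthesis, went the other way, from 25 CPM (range 7.98 to 42) in WT to 98.8 CPM (range 38.7 to 314) in OTC (log2 fold change 2.54, SE 0.48, edgeR adjusted p = 5.54e-05), as did that of the aryl hydrocarbon receptor Ahr, from 33.9 CPM (range 24 to 39.3) in WT to 57.1 CPM (range 47.6 to 80.2) in OTC. Of 20 periportal genes, 8 rose and 2 fell (median 0.23). Pck1, the gluconeogenic phosphoenolpyruvate carboxykinase, rose from 1204 CPM (range 769 to 1392) in WT to 2548 CPM (range 1356 to 5988) in OTC (log2 fold change 1.44, SE 0.25, edgeR adjusted p = 1.14e-05), while Cyp2f2 fell (log2 fold change -0.68, SE 0.15, edgeR adjusted p = 2.78e-04). Without mice 58 and 65, 4 periportal genes rose and 3 fell. In whole liver, fewer cells of a zone or type and less RNA in each such cell cannot be told apart.

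The largest falls were in genes that male mouse livers express more than female ones, a pattern that in mice is set by pulsed growth hormone. Of 19 male-biased genes tested, 18 fell and none rose (median log2 fold change -1.71), and the mean of the list was below the WT range in all 8 OTC livers. Mice 42 (-0.786) and 44 (-0.822) were only just below the lowest WT liver (-0.781), as log2 differences from the WT mean. Hsd3b5, a steroid dehydrogenase of male liver, stood at 52.3 to 333 CPM (median 205) in WT. In OTC it was between 0.171 and 0.672 CPM in 6 mice, 27.3 CPM in mouse 42 and 53.7 CPM in mouse 44. Those 6 livers and mouse 42 were thus under every WT liver, while mouse 44 lay just inside the WT range (log2 fold change -4.26, SE 0.82, edgeR adjusted p = 5.95e-05). Ugt2b1, a glucuronosyltransferase, fell from 628 CPM (range 519 to 1041) in WT to 179.7 CPM (range 77 to 258) in OTC with no overlap (log2 fold change -2.07, SE 0.21, edgeR adjusted p = 8.41e-11). Keg1, a glycine acyltransferase-like gene, fell from 144 CPM (range 118 to 196) in WT to 36.9 CPM (range 18.5 to 112) in OTC, and Cyp4a12b, a fatty acid hydroxylase that shares reads with its near-identical neighbour, from 59.4 CPM (range 31.5 to 98.9) in WT to 3.05 CPM (range 0.114 to 11.4) in OTC. Both groups of values were separate. Slc22a7, an organic anion transporter, fell from 20.8 CPM (range 11.3 to 41.7) in WT to 1.23 CPM (range 0.263 to 3.38) in OTC (log2 fold change -3.79, SE 0.42, edgeR adjusted p = 1.35e-09).

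The major urinary proteins, pheromone carriers that male liver secretes in bulk, had 14 of 19 tested genes lower and none higher (median -2.89). Their genes are near-identical copies, so how reads were divided among members is uncertain. Mup8 stood at 42 to 802 CPM (median 201) in WT and 0 to 8.29 CPM (median 1.9) in OTC with no overlap (log2 fold change -6.44, SE 1.14, edgeR adjusted p = 1.66e-05). Mup17 stood at 65.7 to 1334 CPM (median 323) in WT; it had no count in 5 OTC mice and reached 56 CPM in mouse 42 (log2 fold change -5.80, and -9.18 without that mouse). Mup2 was 482 to 2524 CPM (median 877) in WT and 4.61 to 419.6 CPM (median 41.4) in OTC, the 2 highest OTC values being 419.6 CPM in mouse 42 and 248 CPM in mouse 44. Mup7 was 808 to 8874 CPM (median 3406) in WT and 3.00 to 1065 CPM (median 21.9) in OTC, with mouse 42 (1065 CPM) and mouse 44 (887 CPM) inside the WT range and no other OTC mouse above 29.6 CPM. The value of Mup14 also turned on 1 mouse (-4.11, and -7.76 without mouse 44). Obp2a, an odorant binding protein, fell from 9.44 CPM (range 2.52 to 40.2) in WT to 0.248 CPM (range 0.115 to 2.6) in OTC (log2 fold change -4.43). Without mice 42 and 44, 19 of 19 male-biased and 17 of 19 Mup genes fell; without mice 58 and 65, 15 and 10 fell. Among mice numbered up to 44, where mice 42 and 44 were 2 of 4 OTC livers, 3 of 18 male-biased and 2 Mup genes passed the test.

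Female-biased genes did not mirror this as a group: 8 of 25 rose, 3 fell and 14 did not pass. Among mice numbered up to 44 the count turned, with 1 of 21 higher and 3 lower, against 8 of 22 higher and 1 lower among mice numbered above 44. Cux2, a transcription factor of female liver, stood at 0.202 to 0.442 CPM (median 0.249) in WT. It was 0.343 and 0.185 CPM in OTC mice 42 and 44, neither above the WT range, and 1.12 to 44.2 CPM in the other 6 OTC livers (log2 fold change 5.38, SE 1.08, edgeR adjusted p = 1.16e-04). Slco1a4, an organic anion carrier, rose from 54 CPM (range 35.7 to 114) in WT to 249.9 CPM (range 75.1 to 459) in OTC (log2 fold change 2.01, SE 0.31, edgeR adjusted p = 1.35e-06). The growth hormone receptor Ghr fell from 673 CPM (range 607 to 726) in WT to 340.0 CPM (range 217 to 432) in OTC, every OTC liver lying below every WT liver (log2 fold change -1.01, SE 0.15, edgeR adjusted p = 1.27e-06). Its part in the sex-biased lists was not tested. The growth factor Igf1 itself did not pass the test (log2 fold change -0.065), and in the list of 21 growth hormone and IGF genes 4 rose and 5 fell (5 and 5 on the TPM scale).

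Genes known to respond to glucocorticoid hormone were higher: 13 of 17 rose and none fell (median log2 fold change 1.41). Fkbp5, a receptor co-chaperone, rose from 10.1 CPM (range 7.53 to 17.8) in WT to 61.8 CPM (range 18.2 to 196) in OTC with no overlap; mouse 58 was highest at 196 CPM, mouse 65 next at 124 CPM and mouse 42 lowest at 18.2 CPM (log2 fold change 2.75, SE 0.43, edgeR adjusted p = 1.84e-06). Igfbp1, a secreted IGF-binding protein, stood at 4.58 to 14.6 CPM (median 9.98) in WT and 5.86 to 495 CPM (median 48.7) in OTC, with 495 CPM in mouse 58 (log2 fold change 3.27, and 2.02 without that mouse, still called). Lpin1, a phosphatidate phosphatase, rose from 73 CPM (range 44.3 to 92.7) in WT to 220.5 CPM (range 102 to 641) in OTC with no overlap (log2 fold change 2.08, SE 0.46, edgeR adjusted p = 3.62e-04). The metallothioneins Mt1 and Mt2, metal-binding proteins with near-identical sequence, were called higher with their highest levels in mice 53 and 58. Mt1 stood at 2.2 to 10.8 CPM (median 3.59) in WT, and at 80.2 and 68.6 CPM in those 2 mice. Without mouse 53 the log2 fold changes were 2.01 for Mt1 and 2.09 for Mt2, and neither was called then or without mouse 58; the call for Mt2 was also lost without each of 6 WT mice. Without mice 58 and 65, 6 of 17 genes rose and none fell, and among mice numbered up to 44, 4 rose and none fell. The mean of the list was above the WT range in 7 of 8 OTC livers.

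Of 21 clock genes 5 rose and 4 fell, close to the shares over all genes; 7 rose and 3 fell among mice numbered up to 44, and 3 and 3 among mice numbered above 44. The WT livers stood apart by mouse number in this list, with means of 0.19 to 0.37 in mice 56, 57, 69 and 70 and -0.39 to -0.07 in mice 15 to 40 (log2 difference from the mean of all WT livers). Both Per1, a repressor of the clock, and Ciart, another repressor, carry the clock factors' E-box CACGTG within the 250 bases before a start in RefSeq's GRCm38.p6 annotation, and these stretches are printed because the genes are among the 10 largest rises. Capitals mark the E-box, searched on both strands; no match overlaps another motif searched here. Of 17 clock genes with a promoter entry 5 hold it, against 9.74% (982) of the 10080 tested genes with an entry, and of those 5 genes 2 rose and 3 did not pass. Per1 has 2 annotated starts, and the 1 shown was taken from those that hold the E-box (chr11:69098699-69098948, plus strand). This stretch lies inside the gene, whose annotated span begins at 69095217. Ciart is at chr3:95882229-95882478, minus strand.
Per1: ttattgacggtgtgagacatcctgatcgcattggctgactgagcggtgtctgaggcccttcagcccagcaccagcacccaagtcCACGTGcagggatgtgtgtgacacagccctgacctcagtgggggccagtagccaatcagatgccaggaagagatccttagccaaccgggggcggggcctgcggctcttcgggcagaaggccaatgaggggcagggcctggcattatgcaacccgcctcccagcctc
Ciart: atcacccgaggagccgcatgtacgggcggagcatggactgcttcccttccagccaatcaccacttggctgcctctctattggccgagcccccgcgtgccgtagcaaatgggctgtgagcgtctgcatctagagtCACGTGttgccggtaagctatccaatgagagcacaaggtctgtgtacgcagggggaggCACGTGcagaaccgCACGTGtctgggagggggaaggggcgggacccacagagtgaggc

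Per1 stood at 2.42 to 12.2 CPM (median 3.85) in WT and 6.23 to 96.4 CPM (median 37.6) in OTC; mouse 42, at 6.23 CPM, was the only OTC liver inside the WT range (log2 fold change 3.05, SE 0.52, edgeR adjusted p = 9.95e-06). Ciart stood at 0.32 to 1.89 CPM (median 0.733) in WT, 1.37 CPM in mouse 42 and 7.81 to 28.4 CPM in the other 7 OTC livers (log2 fold change 3.73, SE 0.69, edgeR adjusted p = 3.41e-05). Usp2, a ubiquitin protease under clock control, stood at 1.16 to 5.91 CPM (median 2.18) in WT, 1.32 CPM in mouse 42 and 12 to 56.4 CPM in the others (log2 fold change 3.06). Among mice numbered up to 44 and above 44 the log2 fold changes were 2.74 and 3.22 for Per1, 4.23 and 3.38 for Ciart and 3.22 and 2.88 for Usp2, all called. The activators Npas2 and Arntl were chosen here after their values were seen. Npas2 stood at 1.17 to 3.49 CPM in WT mice 56, 57, 69 and 70, at 7.12 to 14 CPM in the other 5 WT mice and at 0.219 to 5.1 CPM (median 0.602) in OTC. Arntl showed the same division of WT, with 8.78 to 14.6 CPM against 22.5 to 34.4 CPM, and stood at 3.13 to 20.8 CPM (median 7.72) in OTC. Both were called lower (log2 fold changes -2.37 and -1.18, edgeR adjusted p = 0.00632 and 0.0279), also with a term for mouse numbers above 44 (-2.10 and -0.92, edgeR adjusted p = 0.00229 and 0.0186). Within the mice numbered up to 44 Npas2 was called (-2.52, edgeR adjusted p = 0.0355) and Arntl was not (-1.51, 0.0512), and within those above 44 neither was (-1.47 and -0.45, edgeR adjusted p = 0.0668 and 0.142). The call for Arntl was also lost without WT mouse 32 or 40, without OTC mouse 23 or 33, or without OTC mice 58 and 65. The clock outputs Dbp (0.55) and Nr1d1 (-0.17) and the repressor Per2 (0.43) did not pass. The labels give no clock time of sampling, so the part of the time of day was not tested.

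Of 49 interferon-stimulated genes tested, 29 rose and 1 fell (median log2 fold change 0.47). A pair of them is shown with their promoters, since both rose and both hold copies of the interferon response element, GAAA and GAAA spaced by any 2 bases, searched on both strands and marked in capitals. Of 37 genes of the list with a promoter entry 17 hold it, against 3.36% (339) of the 10080 tested genes; of these 17, 7 rose, none fell and 10 did not pass. Ifit1, an RNA-binding antiviral protein, is at chr19:34640639-34640888, plus strand, and Isg15, a ubiquitin-like modifier, at chr4:156200819-156201068, minus strand. Isg15 was chosen after its values and matches were seen. In Ifit1 the capitals read the reverse complement, and in Isg15 3 matches overlap each other; no match overlaps another motif searched.
Ifit1: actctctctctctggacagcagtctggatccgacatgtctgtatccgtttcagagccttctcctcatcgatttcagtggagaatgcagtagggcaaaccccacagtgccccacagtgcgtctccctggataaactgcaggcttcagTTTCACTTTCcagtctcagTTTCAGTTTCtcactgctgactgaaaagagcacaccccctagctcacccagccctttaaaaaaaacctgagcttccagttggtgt
Isg15: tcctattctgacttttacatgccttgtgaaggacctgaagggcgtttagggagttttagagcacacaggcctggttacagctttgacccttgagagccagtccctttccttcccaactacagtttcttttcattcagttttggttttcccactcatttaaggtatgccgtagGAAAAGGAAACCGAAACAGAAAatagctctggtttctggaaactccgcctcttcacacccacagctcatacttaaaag

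Ifit1 stood at 5.49 to 15.7 CPM (median 8.3) in WT and 10.7 to 38.3 CPM (median 29.5) in OTC; mouse 58 was lowest at 10.7 CPM and the only OTC liver inside the WT range (log2 fold change 1.59, SE 0.24, edgeR adjusted p = 1.20e-06). Isg15 stood at 5.32 to 10.7 CPM (median 7.46) in WT and 5.34 to 26.3 CPM (median 19) in OTC, again with mouse 58 lowest (log2 fold change 1.21, SE 0.26, edgeR adjusted p = 2.69e-04). Usp18, the protease that removes Isg15 and damps interferon signalling, rose from 5.62 CPM (range 3.51 to 10.2) in WT to 23.1 CPM (range 9.98 to 37.7) in OTC, and Irf7, the transcription factor that amplifies the response, from 18.8 CPM (range 14.4 to 31.2) in WT to 64.1 CPM (range 26.5 to 90.5) in OTC. Their log2 fold changes were 1.90 (SE 0.23) and 1.58 (SE 0.21). Without mice 58 and 65, 35 genes rose and 1 fell; among mice numbered up to 44, 21 rose, and among mice numbered above 44, 8 rose and 1 fell. The gene that fell, Psmb9 (-0.72), is an immunoproteasome subunit, and its neighbours in antigen processing Psmb8 (-0.24) and Tap1 (-0.28) did not pass the test. Interferon-stimulated genes of the guanylate-binding and immunity-related GTPase families were mostly uncalled: Gbp3 rose (0.97), while Gbp2, Gbp7, Igtp, Irgm1 and Iigp1 lay between 0.00065 and 0.32 and did not pass.

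Targets of p53, the DNA damage and stress regulator, had 15 of 25 genes higher and 2 lower (median log2 fold change 0.56). Among mice numbered up to 44, 8 of 24 rose, and among those above 44, 5 of 24 rose, with none lower in either. Bax, a death effector, rose from 12 CPM (range 10.8 to 14.6) in WT to 22.4 CPM (range 18.5 to 37.4) in OTC with no overlap (log2 fold change 1.02, SE 0.12, edgeR adjusted p = 4.47e-09). Phlda3, an inhibitor of Akt signalling, rose from 0.768 CPM (range 0.439 to 2.92) in WT to 4.19 CPM (range 0.525 to 13.8) in OTC (log2 fold change 2.55, SE 0.46, edgeR adjusted p = 2.74e-05), and the p53 ubiquitin ligase Mdm2 from 28.2 CPM (range 23.7 to 34.4) in WT to 40.5 CPM (range 30.4 to 63.2) in OTC. The cell cycle inhibitor Cdkn1a, also outside the naming rule, stood at 2.94 to 21.8 CPM (median 8.68) in WT and 9.77 to 55.5 CPM (median 29) in OTC (log2 fold change 1.65, SE 0.44, edgeR adjusted p = 0.00288). Of 26 targets of NRF2, the oxidant-responsive factor, 13 rose and 3 fell (median 0.41). Among mice numbered up to 44, 8 of 23 rose and none fell, and among those above 44, 6 of 24 rose and 1 fell. Nqo1, a quinone reductase, rose from 4.62 CPM (range 2.39 to 5.98) in WT to 12.7 CPM (range 6.35 to 26.3) in OTC, and Gstm1, a glutathione transferase, from 1085 CPM (range 690.0 to 1306) in WT to 2584 CPM (range 1819 to 4226) in OTC, both without overlap between the groups. Of 32 targets of ATF4, the factor of the amino acid and integrated stress responses, 11 rose and 2 fell, with 6 and 1 among mice numbered up to 44 and 1 and 1 among those above 44. Atf3 (1.46), Nupr1 (1.76) and Sesn2 (0.85) were among the rises at levels of a few CPM, Shmt2, mitochondrial serine hydroxymethyltransferase, fell from 195 CPM (range 186 to 214) in WT to 146 CPM (range 99.8 to 163) in OTC, and Atf4 itself (0.29) did not pass.

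**Figure D2:**
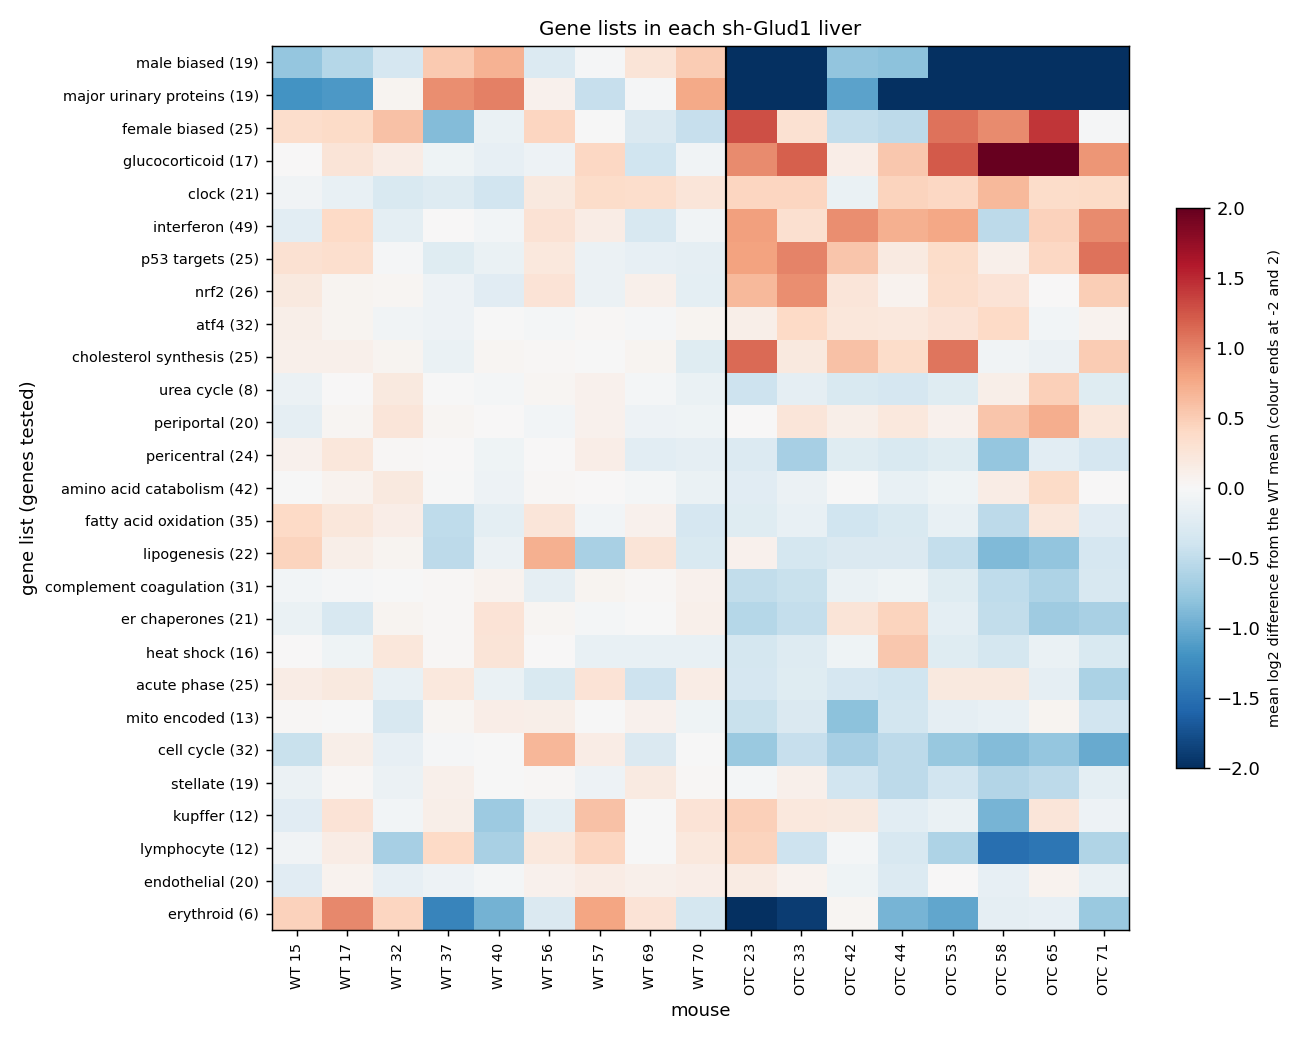
The heat map gives, for each gene list (rows, with the number of genes tested) and each liver (columns, 9 WT then 8 OTC), the mean log2 difference from the WT mean. Values beyond the ends of the colour scale look alike. The male-biased row is dark blue in 6 OTC livers and paler in mice 42 and 44, and the Mup row is paler in mouse 42. The glucocorticoid row is darkest in mice 58 and 65, and the interferon row is raised in the OTC livers except mouse 58.

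Cholesterol synthesis was higher in OTC: 12 of 25 genes rose and none fell (median log2 fold change 0.46). Hmgcs1, which makes HMG-CoA for the pathway, is shown because it is the single member of 17 with a promoter entry that holds the sterol response element TCACNCCAC, in capitals (both strands searched, no overlap with another motif; 1.31%, or 132, of the 10080 tested genes hold it). It is at chr13:119690101-119690350, plus strand and was chosen after its values and match were seen.
Hmgcs1: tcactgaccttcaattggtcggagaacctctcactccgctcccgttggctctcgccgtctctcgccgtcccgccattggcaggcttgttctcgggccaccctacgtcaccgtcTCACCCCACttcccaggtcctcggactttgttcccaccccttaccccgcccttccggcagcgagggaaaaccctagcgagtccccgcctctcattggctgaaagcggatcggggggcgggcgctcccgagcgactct

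Hmgcs1 stood at 167 to 313 CPM (median 233) in WT and 175 to 1276 CPM (median 398) in OTC, with overlap (log2 fold change 1.18, SE 0.32, edgeR adjusted p = 0.00357). Lss, lanosterol synthase, rose from 74.8 CPM (range 61 to 92.4) in WT to 146 CPM (range 108 to 318) in OTC, without overlap (log2 fold change 1.27, SE 0.21, edgeR adjusted p = 4.95e-06). Fdft1, squalene synthase, rose from 139.8 CPM (range 112 to 169) in WT to 267 CPM (range 159.5 to 461) in OTC, and Srebf2, the transcription factor of the pathway, from 49.9 CPM (range 43.1 to 58.5) in WT to 64.4 CPM (range 51.6 to 75.7) in OTC. Insig1 (-0.16), which that factor is also known to control, did not pass. Without mice 58 and 65, 16 rose and none fell. Among mice numbered up to 44, 7 of 25 rose, and among mice numbered above 44, 3 of 25 rose, with none lower in either.

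Genes of fat metabolism fell more often than they rose. Of 22 genes of fatty acid and triglyceride synthesis 9 fell and 2 rose, and of 35 genes of fatty acid oxidation 15 fell and 4 rose. Elovl5, a fatty acid elongase, stood at 413 to 1208 CPM (median 745) in WT and 174 to 608 CPM (median 324) in OTC (log2 fold change -1.27, SE 0.27, edgeR adjusted p = 2.36e-04). Plin2, a lipid droplet coat protein, fell from 353 CPM (range 257 to 462) in WT to 157 CPM (range 65.3 to 284) in OTC (log2 fold change -1.01, SE 0.21, edgeR adjusted p = 1.98e-04). Fabp1, the liver fatty acid binding protein and a gene chosen after its values were seen, stood at 2322 to 3463 CPM (median 2861) in WT and 269.7 to 1973 CPM (median 1020.1) in OTC with no overlap (log2 fold change -1.40, SE 0.34, edgeR adjusted p = 0.00108). Acaa2, a thiolase of mitochondrial oxidation, fell from 700.1 CPM (range 657 to 748) in WT to 547 CPM (range 447 to 632) in OTC with no overlap, while Cyp4a14, a fatty acid hydroxylase, rose from 145 CPM (range 22.2 to 585) in WT to 1502 CPM (range 84.2 to 3251) in OTC, with mouse 42 at 84.2 CPM. On the TPM scale 12 oxidation genes fell and 7 rose, and among mice numbered above 44, 4 fell and 4 rose. In the bile acid list 6 of 24 rose and 6 fell (8 and 5 on the TPM scale); beside Cyp7a1 the basolateral exporter subunit Slc51b rose (2.11) and the sterol hydroxylase Cyp27a1 rose from 387 CPM (range 338 to 407) in WT to 488 CPM (range 402 to 684) in OTC.

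The count for chaperones of the endoplasmic reticulum depended on the mice and the scaling. Of 21 genes 6 fell and 1 rose (median log2 fold change -0.21); without mice 42 and 44 it was 16 and 1, without mice 58 and 65 it was 2 and 0, and on the TPM scale 2 and 1. Calr, calreticulin, and Pdia6, a disulfide isomerase, were called lower with all mice and both hold the ER stress response element, CCAAT and CCACG spaced by any 9 bases, printed in capitals (both strands searched, no overlap with another motif). Of 18 genes of the list with a promoter entry 7 hold it, against 0.179% (18) of the 10080 tested genes; 3 of those 7 fell and 4 did not pass. Calr is at chr8:84846932-84847181, minus strand, where the capitals read the reverse complement, and Pdia6 at chr12:17266339-17266588, plus strand.
Calr: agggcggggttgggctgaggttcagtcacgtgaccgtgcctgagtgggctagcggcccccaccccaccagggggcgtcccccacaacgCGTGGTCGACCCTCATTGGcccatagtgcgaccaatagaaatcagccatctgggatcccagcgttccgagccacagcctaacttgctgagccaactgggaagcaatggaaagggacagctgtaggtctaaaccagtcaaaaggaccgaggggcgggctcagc
Pdia6: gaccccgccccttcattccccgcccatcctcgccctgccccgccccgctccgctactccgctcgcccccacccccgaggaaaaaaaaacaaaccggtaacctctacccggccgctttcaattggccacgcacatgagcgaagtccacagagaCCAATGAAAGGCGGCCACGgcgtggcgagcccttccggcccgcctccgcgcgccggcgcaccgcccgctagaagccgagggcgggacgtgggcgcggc

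Calr stood at 691 to 895 CPM (median 749) in WT and 342 to 838 CPM (median 454) in OTC; mice 42 (765 CPM) and 44 (838 CPM) lay inside the WT range and the other 6 below it (log2 fold change -0.56, SE 0.13, edgeR adjusted p = 4.38e-04). Pdia6 stood at 199 to 300.1 CPM (median 248) in WT and 87.8 to 283 CPM (median 168) in OTC (log2 fold change -0.51, SE 0.16, edgeR adjusted p = 0.013). The call for Pdia6 was lost on the TPM scale (-0.30, limma adjusted p = 0.144), without mice 58 and 65 (-0.33, edgeR adjusted p = 0.129) and among mice numbered up to 44 (-0.22, edgeR adjusted p = 0.431), where Calr was not called either (-0.39, edgeR adjusted p = 0.287). The sensor kinase Ern1 fell from 38.8 CPM (range 34.7 to 58.9) in WT to 27 CPM (range 16.6 to 32.2) in OTC with no overlap, and Hspa5, the main chaperone of the compartment, did not pass (-0.16). In the cytosol Hspa8, a constitutive chaperone, rose from 844 CPM (range 478 to 989) in WT to 1242 CPM (range 997 to 1778) in OTC with no overlap, and none of the inducible Hspa1a (-1.15), Hspa1b (-0.35) and Dnajb1 (-0.052) passed.

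Secreted plasma proteins were mixed. Of 25 acute phase genes 4 rose and 6 fell, and on the TPM scale 8 rose and 5 fell. Saa4, a constitutive serum amyloid, fell from 282 CPM (range 224 to 373) in WT to 132 CPM (range 87.4 to 194) in OTC, and Itih3, a protease inhibitor heavy chain, rose from 729 CPM (range 517 to 832) in WT to 1048 CPM (range 890.1 to 1618) in OTC; in both the groups were separate. The inducible Saa1 stood at 17.8 to 316 CPM (median 70.3) in WT and 3.36 to 105 CPM (median 18.9) in OTC (log2 fold change -1.97, SE 0.56, edgeR adjusted p = 0.00500), a value that shares reads with its near-identical copy Saa2. Of 31 complement and coagulation genes 14 fell and 4 rose (10 and 7 on the TPM scale). Coagulation factor F11 fell from 98.6 CPM (range 75.9 to 134) in WT to 40.1 CPM (range 28.3 to 57.1) in OTC with no overlap (log2 fold change -1.27, SE 0.13, edgeR adjusted p = 3.23e-10). Mbl2, a lectin that starts the complement cascade, rose from 273 CPM (range 247 to 403) in WT to 541 CPM (range 386 to 675) in OTC.

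Transcripts encoded in mitochondrial DNA were lower, 8 of 13 with none higher (median log2 fold change -0.28), against 5 lower and 1 higher on the TPM scale. CYTB, a subunit of respiratory complex III, stood at 11107 to 12337 CPM (median 12197) in WT and 5531 to 9567 CPM (median 6829) in OTC with no overlap (log2 fold change -0.77, SE 0.11, edgeR adjusted p = 1.71e-07), and ND4, of complex I, at 10457 to 13525 CPM (median 12198) and 6139.7 to 9975 CPM (median 8256). Nuclear copies of mitochondrial DNA make how reads were assigned uncertain. Of 32 cell division genes, scarce in adult liver, 15 fell and 1 rose (median -0.94), the list mean lying below the WT range in all 8 OTC livers. Mouse 33 was only just below it, at -0.456 against -0.440 in the lowest WT liver (log2 difference from the WT mean). Top2a, a topoisomerase of dividing cells, stood at 0.896 to 2.8 CPM (median 1.47) in WT and 0.0438 to 0.864 CPM (median 0.381) in OTC, and Mcm4, of the replicative helicase, at 4.1 to 8.9 CPM (median 4.97) and 2.06 to 4.04 CPM (median 2.87); neither overlapped. Mki67, a proliferation marker chosen after its values were seen, had a log2 fold change of -1.44 (SE 0.40, edgeR adjusted p = 0.00422). On the TPM scale, where 12 of the division genes had a mean of at least 1 TPM, 5 fell and 2 rose.

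**Figure D3:**
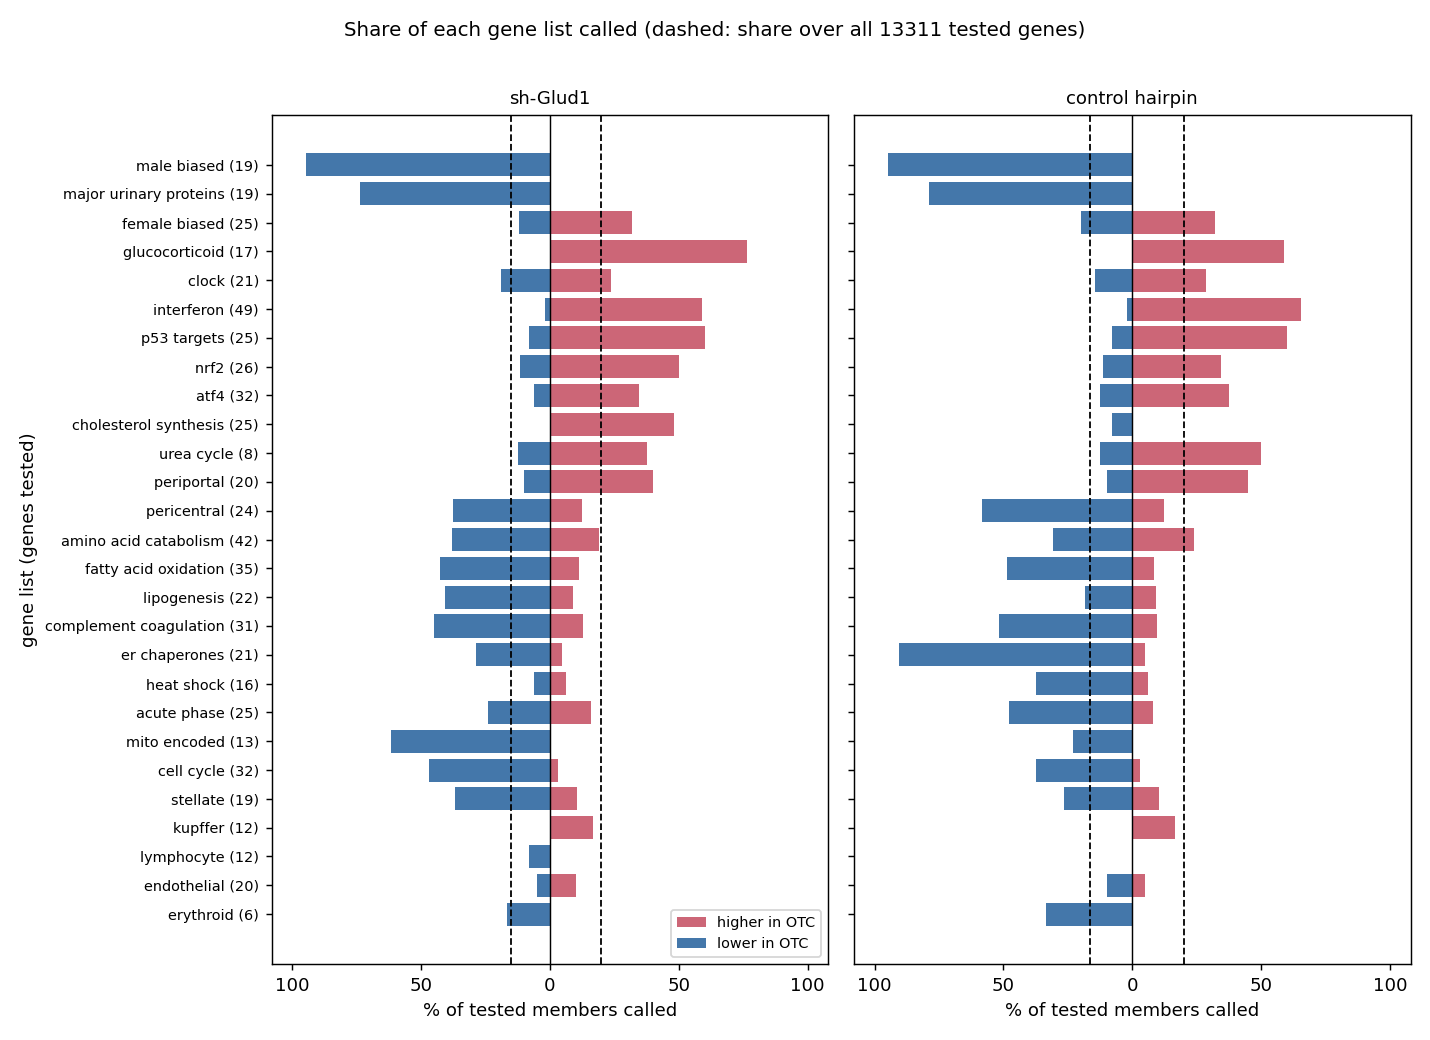
Bars give the percentage of each list's tested genes called higher (right) or lower (left) in OTC, under sh-Glud1 and under the scrambled control, with dashed lines at the shares over all tested genes. Glucocorticoid, p53 and interferon lists extend farthest to the right under sh-Glud1 and male-biased and Mup lists to the left, and the cholesterol synthesis bar is long under sh-Glud1 and absent on the right under control.

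Markers of hepatocytes summed to 90384 to 123184 CPM in OTC and 86148 to 107602 CPM in WT; of 12 genes 3 rose and 5 fell, on the TPM scale 5 rose and 2 fell, and without mice 58 and 65, 1 and 4. Kupffer cell markers summed to 110.3 to 247 CPM in OTC and 122 to 266 CPM in WT (2 of 12 higher), those of monocytes and neutrophils to 3.98 to 11.5 CPM and 3.90 to 8.19 CPM (1 of 8 higher), and those of lymphocytes to 2.98 to 17.5 CPM and 7.17 to 15.3 CPM (1 of 12 lower). None of 7 class II MHC genes passed the test. Among mice numbered above 44 (4 OTC, 4 WT), 3 of these 7 (median log2 fold change -1.02) and 4 of 8 lymphocyte genes (median -1.40) fell. Of 19 stellate cell genes 7 fell and 2 rose, while 4 rose and 4 fell on the TPM scale and none and 5 without mice 58 and 65; the sums overlapped (347 to 496 CPM in OTC, 391 to 475 CPM in WT). The collagen gene Col3a1 stood at 20.5 to 30.2 CPM (median 25.2) in WT and 3.85 to 16.3 CPM (median 11.2) in OTC, and Col1a1 at 3.13 to 6.11 CPM (median 3.97) and 0.788 to 3.01 CPM (median 1.45), both without overlap. Of 20 endothelial genes 2 rose and 1 fell (none and 3 among mice numbered above 44), and of 9 bile duct genes Pkhd1 alone was called (log2 fold change -0.76). Alas2, the heme synthesis enzyme of red cell precursors, fell from 144 CPM (range 112 to 168) in WT to 15.3 CPM (range 9.81 to 62.6) in OTC with no overlap (log2 fold change -2.56, SE 0.30, edgeR adjusted p = 6.83e-09), while none of the other 5 erythroid genes was called. No pancreas or fat marker reached the tested set; Prss2, Cpa1, Cel, Clps and Lep had no count in any of the 17 libraries. The part of cell make-up in the immune and stromal lists was not tested.

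The same strain comparison was made under the scrambled control and under sh-Gls2, in libraries that do not enter the sh-Glud1 comparison. Under control 4830 genes were called (36.3%) and under sh-Gls2 3924 (29.5%). Of the 4663 genes called under sh-Glud1, 3466 were also called under control and all in the same direction, which is 74.3% of the sh-Glud1 list and 71.8% of the control list. With sh-Gls2 the shared genes were 2437 in the same direction (52.3% of the sh-Glud1 list and 62.1% of the sh-Gls2 list) and 15 in the opposite one. Across genes the log2 fold changes correlated with r = 0.856 for control and 0.766 for sh-Gls2, a description across 13311 genes that are not independent replicates. Of the 636 genes that differed at least 2-fold under sh-Glud1, 629 had the same sign under control and 514 were called there in the same direction; for sh-Gls2 the numbers were 619 and 433. Over the 4830 genes called under control the median absolute log2 fold change was 0.398 under control, 0.341 under sh-Glud1 and 0.263 under sh-Gls2. These genes were selected by the control test, which raises the control value, so the arms are not on equal terms here. Calls of at least 2-fold numbered 323 higher and 313 lower under sh-Glud1, 303 and 293 under control, and 185 and 202 under sh-Gls2.

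**Figure D4:**
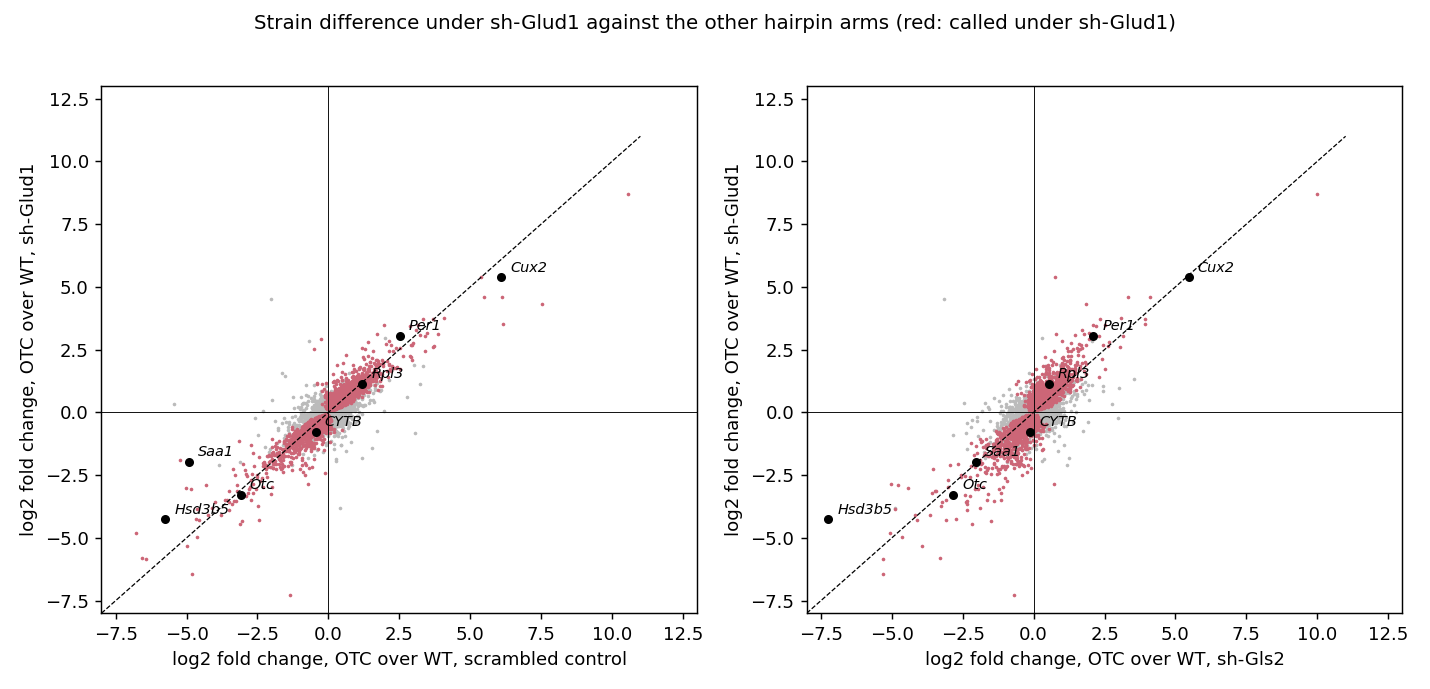
Each point is 1 of the 13311 tested genes, with its OTC minus WT log2 fold change under sh-Glud1 on the vertical axis and under the scrambled control (left) or sh-Gls2 (right) on the horizontal axis; red points were called under sh-Glud1 and the dashed line marks equal values. Points follow the dashed line (r = 0.856 and 0.766), Saa1 lies above it in the left panel, and CYTB lies below it in both.

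No gene's strain difference was shown to differ between sh-Glud1 and control: edgeR called 0 genes (0.0%), with 417 at an unadjusted p below 0.05 (3.13%) and a smallest adjusted p of 0.999, and DESeq2 called 0 with 435 at an unadjusted p below 0.05. Some of the genes with the smallest unadjusted p are given as values. Saa1 had a strain difference of -1.97 under sh-Glud1 and -4.91 under control, and Saa2 -1.91 and -5.23. Orm2, another acute phase protein with near-identical copies, had -1.16 and -3.16. Prkcq, a protein kinase C, had -0.82 and 0.074. Among the lists, cholesterol synthesis had 12 genes higher and 0 lower under sh-Glud1, 0 and 2 under control, and 7 and 1 under sh-Gls2. Endoplasmic reticulum chaperones had 6 lower under sh-Glud1 and 19 of 21 under control, and acute phase genes 6 and 12. The male-biased list had 18 of 19 lower in both arms and the interferon list 29 and 32 of 49 higher.

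Against sh-Gls2 the strain difference itself differed for 54 genes (0.406%), 40 of them higher under sh-Glud1 and 14 lower, with 1805 genes at an unadjusted p below 0.05. The number moved with the analysis: DESeq2 called 99, and edgeR called 22 without OTC mice 58 and 65, 35 without mouse 58 alone, 28 without mouse 65, 27 without WT mouse 56 and 34 without WT mouse 17. Rpl3 was one of them, with a strain difference of 1.15 under sh-Glud1 and 0.54 under sh-Gls2 (difference 0.61, SE 0.12, edgeR adjusted p = 0.00953). Rhbg had -2.18 and -0.99 (difference -1.19, SE 0.26, edgeR adjusted p = 0.0185), so its fall was the smaller under sh-Gls2. Usp18 had 1.90 and 0.67 (difference 1.24, SE 0.30, edgeR adjusted p = 0.0387). For CYTB the values were -0.77 and -0.13, for ND4 -0.53 and -0.0069, for ND4L -0.58 and -0.066, and for Eif4a2 -0.73 and -0.45. The 5 genes with the smallest unadjusted p for this difference were named after their values were seen. Pfn2, an actin-binding profilin, was 0.73 under sh-Glud1 and -0.60 under sh-Gls2, and Nlrp6, an inflammasome sensor, 0.29 and -0.32; both changed sign between the arms and passed the test in each. The cytochrome Cyp2a12 was -0.49 and 0.19, the purine synthesis enzyme Impdh2 0.53 and 0.014, and the aldolase Aldoa 0.60 and 0.022. Under control Pfn2 stood at 0.72, Nlrp6 at 0.31, Cyp2a12 at -0.47, Impdh2 at 0.39 and Aldoa at 0.52, each nearer its sh-Glud1 value than its sh-Gls2 value.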

How the data were processed

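Liver RNA from 55 mice was sequenced as strand-specific poly(A) libraries with 12 cycles of PCR, per the labels' protocols. Base calling with CASAVA 1.8.2, FastQC and the GRCm38 build are named in the submitters' processing notes; the aligner, counter and annotation are not given in the sources used here. The authors deposited raw counts per gene symbol (24475 symbols, 4775 without a count) and, separately, TPM values for the same libraries.

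Counts were tested with edgeR 4.0.16 (R 4.3.3; quasi-likelihood, TMM scaling, genes kept by filterByExpr with a minimum count of 10 and total of 15). One fit held the 6 groups of strain and hairpin, and p-values were adjusted by Benjamini-Hochberg over all 13311 genes, with a call at 0.05. Each SE is the size of the log2 fold change divided by the square root of edgeR's F statistic, and was not estimated separately. CPM are TMM-scaled; TMM factors of the 17 libraries were 0.946 to 1.12. DESeq2 1.42.0, and limma 3.58.1 on log2 of the deposited TPM plus 1 or 0.1 (mean TPM 1 or more), were alternatives. Fold changes on that scale are understated for low genes. The script was tested on simulated data.

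The rule for naming took the 3 targeted genes; the 10 largest rises and 10 largest falls and the 5 smallest adjusted p in each direction among called genes with a mean log2 CPM of at least 1 and a name that is not a predicted one; up to 4 called genes per list; all urea cycle and glutamine genes; the 5 smallest p in each direction for sh-Glud1 minus control; and genes within 1 Mb of Otc. Some genes that the rule takes are counted in their lists but not reported here by name. Named after their values were seen were Isg15, Hmgcs1, Mt1, Mt2, Pfn2, Cyp2a12, Impdh2, Nlrp6, Aldoa, Cdkn1a, Npas2, Arntl, Mki67, Fabp1 and, beside called ones, uncalled list members. The comparison and gene lists were chosen with earlier results of these data known. Promoters are the 250 bases before each RefSeq start (GRCm38.p6), and those printed were chosen after motif matches were seen. One OTC control column carries a mouse number that no sample title has and was used as an unnumbered replicate of its group. Each library is 1 mouse per its title; p-values measure spread between mice, and no label says how mice were split over batches.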

Additional observations from a re-analysis of the deposited data

Results flagged for a closer look

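In 25 of 278 groups of values (139 named genes in 2 groups, 8.99%) a single liver lay apart from the rest of its group by Dixon's ratio, the gap to its nearest neighbour divided by the group's range. About 1 in 20 holds for independent, normally distributed values. The named genes share the same livers and many were chosen from these data, so an excess over that figure cannot be judged here. Of the 25, 17 were in OTC, with mouse 65 apart in 6, mouse 58 in 5 and mouse 42 in 5.

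Mouse 65 was highest for Slc22a3 (ratio 0.822), Slc25a15 (0.718), Oat (0.68) and Slc25a13 (0.662), and lowest for Atf4 (0.703) and Insig1 (0.551). Mouse 58 was lowest for Gcdh (0.669), Plin2 (0.57), Eif4a2 (0.549), Pkhd1 (0.549) and Irf7 (0.536). Mouse 42 was highest for Otc itself (0.645; 74.5 CPM, against 499.5 to 586 CPM (median 573) in WT) and Npas2 (0.575), and lowest for Usp2 (0.581), Ciart (0.567) and Hspa1a (0.563). Mouse 44 was highest for Dnajb1 (0.571).

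Among WT livers, mouse 56 was highest for Pkhd1 (0.59) and Pygl (0.502) and lowest for Itih3 (0.575), and mouse 32 was highest for Asl (0.586) and Cbr1 (0.564). Mouse 40 was highest for Ern1 (0.574), and the lowest livers were mouse 69 for Igfbp1 (0.546) and mouse 17 for Hspa8 (0.494).

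The strain difference was larger or smaller under sh-Glud1 than under sh-Gls2, by edgeR's test of that difference, for 12 of the named genes. On the log2 scale (sh-Glud1 minus sh-Gls2) it was 1.33 for Pfn2, 1.24 for Usp18, 0.614 for Rpl3, 0.609 for Nlrp6, 0.581 for Aldoa and 0.519 for Impdh2. It was -1.19 for Rhbg, -0.677 for Cyp2a12, -0.641 for CYTB, -0.52 for ND4, -0.517 for ND4L and -0.284 for Eif4a2.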

How the results depend on the processing

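The count of 4663 genes called between OTC and WT under sh-Glud1 lay between 4125 and 4722 with other scalings, filters, DESeq2, a fit to the compared groups or a term for mouse numbers above 44, and was 5684 and 5686 on TPM. Leaving out 1 mouse at a time gave 3881 (without OTC mouse 58) to 4857 (without OTC mouse 42). Mice numbered up to 44 alone gave 1451 calls (1331 shared with the full set) and mice above 44 alone 2010 (1833 shared); both hold fewer mice. TPM raised the share of calls that were higher from 56.8% to 85.5%, the median log2 difference over all genes being 0.155 or 0.178 there; the cause was not tested. The 54 genes whose strain difference differed from that under sh-Gls2 became 27 without a count filter, 86 with the compared groups only, 99 with DESeq2, 98 and 90 on TPM with 1 and 0.1 added, and 22 without OTC mice 58 and 65; leaving out 1 mouse at a time gave 27 to 74. The cause was not tested. Against control the count was 0 under each alternative run. The settings without OTC mice 58 and 65 or without mice 42 and 44 were added after the data were seen. Of 187 genes examined, 163 of them called with all mice, 81 lost a call with the sign kept in at least 1 of 29 settings (207 losses in all). A call was gained with the sign kept for 10 genes (36 gains in all). For 4 genes the sign turned in a setting while the gene was called there or with all mice. Sign turns of genes uncalled in both were not counted. Of the 111 called genes whose values the text takes from the full fit, 36 lost the call among mice numbered up to 44, 21 among mice above 44, 6 without OTC mice 58 and 65, 1 (Orm2) without mice 42 and 44, and 3 on TPM. Got2 was 0.0094 on both TPM scales and Hspd1 0.0033, neither called. Slc25a15 was -0.33 among mice numbered up to 44 (edgeR adjusted p = 0.0498) and Pld6 -0.74 among mice above 44 (edgeR adjusted p = 0.0459), where it was uncalled with all mice; the cause was not tested. No paired analysis was possible because every mouse number occurs once. Depth limits genes near 1 CPM, which rest on few counts a library, and 9 against 8 mice with unequal spread limit the rest.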

Other observations

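Of 42 tested genes of amino acid breakdown 8 rose and 16 fell (14 and 11 on the TPM scale, 2 and 16 without OTC mice 58 and 65). Among mice numbered up to 44, 2 rose and 15 fell, and among mice above 44, 7 and 8. Ivd, of leucine breakdown, fell from 183 CPM (range 167 to 190.5) in WT to 114 CPM (range 100.2 to 135) in OTC, and Kmo, of the kynurenine path of tryptophan, from 304 CPM (range 279 to 400.5) in WT to 180.3 CPM (range 153 to 266) in OTC; neither pair of ranges overlapped. Gcdh, of lysine and tryptophan breakdown, fell from 505 CPM (range 381 to 575) in WT to 355 CPM (range 262 to 373) in OTC, also without overlap. Agxt2, a mitochondrial aminotransferase, had a log2 fold change of -0.66 (SE 0.089, edgeR adjusted p = 1.44e-07). The rises included the serine dehydratase Sds (1.04) and the tyrosine aminotransferase Tat (1.0), which are also in the glucocorticoid list.

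In pyrimidine metabolism 5 of 14 genes rose and 2 fell. Dpyd, which starts uracil breakdown, fell from 622 CPM (range 542 to 701) in WT to 413 CPM (range 326 to 459) in OTC with no overlap (log2 fold change -0.62, SE 0.085, edgeR adjusted p = 2.01e-07). Dhodh, of pyrimidine synthesis, rose from 6.16 CPM (range 5.13 to 7.49) in WT to 7.43 CPM (range 6.86 to 7.97) in OTC (log2 fold change 0.24, SE 0.076, edgeR adjusted p = 0.0124), while Cad (0.20) and Umps (-0.20) did not pass. Uckl1, a uridine-cytidine kinase homologue, rose from 10.8 CPM (range 9.15 to 11.9) in WT to 14.8 CPM (range 12.9 to 17) in OTC, and the kinase Uck1 fell from 41.1 CPM (range 29.9 to 64) in WT to 19.5 CPM (range 15.4 to 31.8) in OTC. In drug metabolism 13 of 28 genes rose and 7 fell; 3 rose and 6 fell among mice numbered up to 44 and 10 and 3 among those above 44. The mean of that list lay below the whole WT range in OTC mice 42 and 44 and above it in 4 other OTC mice. Por, the electron donor of the cytochromes P450, rose from 86.3 CPM (range 63.6 to 148) in WT to 333 CPM (range 134 to 766) in OTC, and Cyp2j5 fell from 809 CPM (range 731 to 890.0) in WT to 395 CPM (range 265 to 558) in OTC. In glucose and glycogen metabolism 7 of 27 rose and 5 fell (13 and 3 on the TPM scale), among them Ppargc1a, a coactivator of gluconeogenesis, at 9.84 to 23.7 CPM (median 15.1) in WT and 19.97 to 81.6 CPM (median 34.3) in OTC, and Pygl, liver glycogen phosphorylase, at 397 to 490.5 CPM (median 424) and 242 to 369 CPM (median 309.9).

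Around Otc on the X chromosome, 45 tested genes lay within 5 Mb, of which 10 were higher and 1 lower (24.4% called, against 35.03% over all genes). The lower one, Xk, a membrane protein of the red cell Kell complex, fell from 8.34 CPM (range 6.62 to 11.6) in WT to 4.59 CPM (range 3.11 to 5.74) in OTC with no overlap (log2 fold change -0.87, SE 0.14, edgeR adjusted p = 6.20e-06). By chromosome the share of called genes ran from 32.5% on chromosome 6 to 40.3% on chromosome 14 among the autosomes, and was 34.1% on the X.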
